A study of Mus musculus with 9 samples.

Results

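The control cultures of a mouse cortical neuron study are described here from their own RNA, as 3 of the 9 libraries of the series. They were chosen by title: each names a therapy control and a repeat from 1 to 3. The labels describe them as wild-type cortical neurons of CD1, an outbred mouse stock, and give PDL in the library name without spelling it out. The treatment field reads peptide amphiphile on the control libraries too, against their titles, so the titles were followed. No age, culture time or coating is stated, and nothing says that the repeats were separate cultures or animals, so the spread between them may be technical. The other 6 libraries were not analysed here, and no treatment comparison was made. With 1 group of 3 libraries there is no test: every statement below is a level, a rank or a spread.

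Cultures of embryonic or newborn cortex hold newly formed neurons that grow axons and dendrites and later build synapses. Glutamatergic projection neurons are the most common kind in cortex, and GABAergic interneurons, which reach it by migration from the ventral forebrain, make up the rest. Astrocytes, oligodendrocyte precursors, microglia and cells of vessels and meninges can be carried along and can divide in culture.

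The deposited values are read counts per gene, with totals of 24282422 for repeat 1, 22667191 for repeat 2 and 21909305 for repeat 3. Levels are in TPM, computed from the counts and the summed exon length of each gene, so that genes of different length can be compared. At 10 CPM (counts scaled to the library total) the shallowest library holds 219 reads, for which counting error alone is 6.76%. A count of 0 was read against a limit of 3 counts, which for the listed genes at 0 corresponds to between 0.0908 TPM (Scn4a) and 0.958 TPM (Hba-a2). The limit does not hold for a gene whose sequence is shared with other genes. Intervals of this kind cover counting error only.

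In all 3 libraries 14296 genes reached 1 TPM, and 12260 of them were protein-coding. At 10 TPM there were 9292 genes, at 100 TPM 2137 and at 1000 TPM 68. The 10 most abundant genes held 3.46%, 3.22% and 3.47% of the counts, and it took 1093, 1131 and 1094 genes to hold 50% of them. No single transcript therefore dominated a library.

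The promoters of 4 genes are shown because the genes carry results below: Sst is the most abundant of the listed neuropeptide genes, and Fos, Nr4a1 and Npas4 belong to the activity genes, several of which differed widely between the 3 libraries. Each sequence is the RefSeq window from 250 bases before to 50 bases after the start, on build GRCm38.p6. They lie at chr16:23890795-23891094 on the minus strand for Sst, chr12:85473640-85473939 on the plus strand for Fos, chr15:101266596-101266895 on the plus strand for Nr4a1 and chr19:4989922-4990221 on the minus strand for Npas4. They are written 5′ to 3′ along the gene. Capitals mark TGACG and its reverse complement CGTCA, the short core of the cyclic AMP response element, to which the factor CREB is known to bind.
Sst: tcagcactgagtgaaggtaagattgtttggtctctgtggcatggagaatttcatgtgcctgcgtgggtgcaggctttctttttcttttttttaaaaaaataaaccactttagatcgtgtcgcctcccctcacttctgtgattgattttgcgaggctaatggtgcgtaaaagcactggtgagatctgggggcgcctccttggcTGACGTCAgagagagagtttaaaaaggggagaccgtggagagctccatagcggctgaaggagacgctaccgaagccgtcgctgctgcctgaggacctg
Fos: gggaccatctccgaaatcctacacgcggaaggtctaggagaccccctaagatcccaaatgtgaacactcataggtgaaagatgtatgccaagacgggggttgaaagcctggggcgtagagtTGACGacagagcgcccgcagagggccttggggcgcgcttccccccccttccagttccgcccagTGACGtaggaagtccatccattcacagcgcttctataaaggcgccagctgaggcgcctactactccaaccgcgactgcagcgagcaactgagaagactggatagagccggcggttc
Nr4a1: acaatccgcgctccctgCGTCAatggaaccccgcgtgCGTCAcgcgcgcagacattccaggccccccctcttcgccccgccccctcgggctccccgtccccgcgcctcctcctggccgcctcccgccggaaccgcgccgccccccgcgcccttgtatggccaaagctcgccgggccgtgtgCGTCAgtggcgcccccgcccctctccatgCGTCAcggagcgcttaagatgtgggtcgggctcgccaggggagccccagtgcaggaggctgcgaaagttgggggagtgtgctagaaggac
Npas4: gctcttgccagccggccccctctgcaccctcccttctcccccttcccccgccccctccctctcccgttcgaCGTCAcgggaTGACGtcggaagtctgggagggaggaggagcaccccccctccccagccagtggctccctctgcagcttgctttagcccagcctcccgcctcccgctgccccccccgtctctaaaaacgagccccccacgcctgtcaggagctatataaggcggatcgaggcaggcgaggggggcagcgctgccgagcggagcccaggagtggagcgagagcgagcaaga
In Sst both orientations overlap in a single TGACGTCA, the full palindrome, which 2.43% of 16511 coding promoters hold. The short motif in either orientation was present in 24.4% of those promoters, many of which belong to genes with few or no reads. Its share was 25.3% for genes from 1 to under 10 TPM, 34.0% from 10 to under 100 TPM and 36.7% at 100 TPM or more. Of the 15 immediate-early genes described below, 11 had a promoter entry (Egr1, Egr3, Arc and Ier2 did not), and 9 of the 11 held the short motif. A match is a run of letters, not a measured binding site.

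The most abundant coding transcripts were those of mitochondria, the cytoskeleton and the growing axon. Among the 20 protein-coding genes with the highest mean TPM, 7 were mitochondrial, led by mt-Nd1, a subunit of respiratory complex I, at 4810.4, 9686 and 11785 TPM in repeats 1, 2 and 3. Repeat 1 was the lowest for each of the 7 (38.8% of the 12727 coding genes with a mean of at least 1 TPM were lowest there), and mitochondrial genes took 0.531%, 1.11% and 1.34% of all counts. The highest nuclear gene was Tubb3, the beta-tubulin of neurons, at 6114, 5153 and 5557 TPM. Tubb5 followed at 5196, 4690.3 and 4806 TPM and Actb, cytoplasmic actin, at 4969.6, 4862 and 4601 TPM. Tubb5 was above Actb in repeats 1 and 3 and below it in repeat 2, and their levels overlapped between libraries.

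Proteins of growth cones and of protein synthesis made up much of the remainder. Dpysl3, a collapsin response mediator of growth cones, stood at 4230.3, 3881 and 3861 TPM. Nnat, an imprinted gene of developing neurons, stood at 4032, 4362 and 3575 TPM, and Basp1, a membrane protein of growing axons, at 3999.7, 4025 and 3475 TPM. Tmsb4x, which binds actin monomers, Tubb2b, Marcksl1, Tuba1a, Ptms, the elongation factor Eef2 and the chaperone Hsp90ab1 completed the nuclear members, with means between 3079 and 3989 TPM. Of the 5 most abundant genes of other types, mt-Rnr2, CT010467.1 and mt-Rnr1 are ribosomal RNAs, with means of 1724, 1569.6 and 1466 TPM. Mir6236, annotated as a miRNA gene of 123 bases, had a mean of 3321 TPM, and Peg13, an imprinted noncoding RNA, stood at 642, 586 and 525 TPM.

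Tubulin and calmodulin isotypes were unequal. Summed over 13 tubulin genes, the level was 21305, 19186 and 20700.2 TPM, of which Tubb3, Tubb5, Tubb2b and Tuba1a supplied most. Tubb2a followed at 1530.3, 1428 and 1399 TPM and Tubb4a at 857, 691 and 700.3 TPM, while Tubb6 stayed between 14.7 and 18.6 TPM. Of the calmodulin genes, Calm3 stood at 2192, 1991 and 1841 TPM and Calm2 at 1005, 1095 and 1156 TPM, without overlap.

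Most pan-neuronal genes were high. The list of 20 pan-neuronal genes had a median of 416, 425 and 433 TPM in the 3 libraries, and the gene at the median of the list ranked above 97.6% of the genes detected. All 20 reached 1 TPM and 13 reached 100 TPM in every library. Behind Tubb3, the highest were Uchl1, a deubiquitinase abundant in neurons, at 2833, 2469 and 2218 TPM, Gap43, a growth cone protein, at 2332, 2286 and 2067 TPM, and Mapt, which encodes tau, at 2296, 2093 and 2049.6 TPM. Stmn2, a microtubule regulator of growing axons, was at 1148, 1052 and 1044 TPM. Map2, a marker of dendrites, was lower at 530.2, 579 and 669 TPM, and Rbfox3, the nuclear antigen NeuN, was at 86.8, 76.6 and 76.7 TPM. The lowest were Nefh, a neurofilament of mature axons, at 6.08, 5.39 and 4.53 TPM, and the surface protein Thy1 at 19.9, 31.0 and 16.9 TPM. The labelled cell type therefore had its defining markers in all 3 libraries.

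Genes of young neurons had a median near that of the pan-neuronal list, at 426, 354 and 363 TPM over 12 genes. Cd24a, a surface protein of newborn neurons, stood at 1139, 1312 and 1489 TPM, and Mllt11, which binds microtubule proteins, at 1198, 1264 and 1398 TPM. Dcx, the microtubule protein doublecortin of migrating neurons, stood at 755, 919 and 1121 TPM, and the transcription factor Sox11 at 770.4, 948 and 1016 TPM. Repeat 1 was the lowest of the 3 for each of these 4 and for 7 of the 12 (38.8% of all coding genes measured), while 4 others, among them Tubb2b (4309, 3673 and 3626 TPM) and Sox4 (569, 465 and 427 TPM), were highest there. At the other end, Nhlh1 and Nhlh2, factors of cells just leaving the cycle, stayed between 2.02 and 5.23 TPM.

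**Figure D1:**
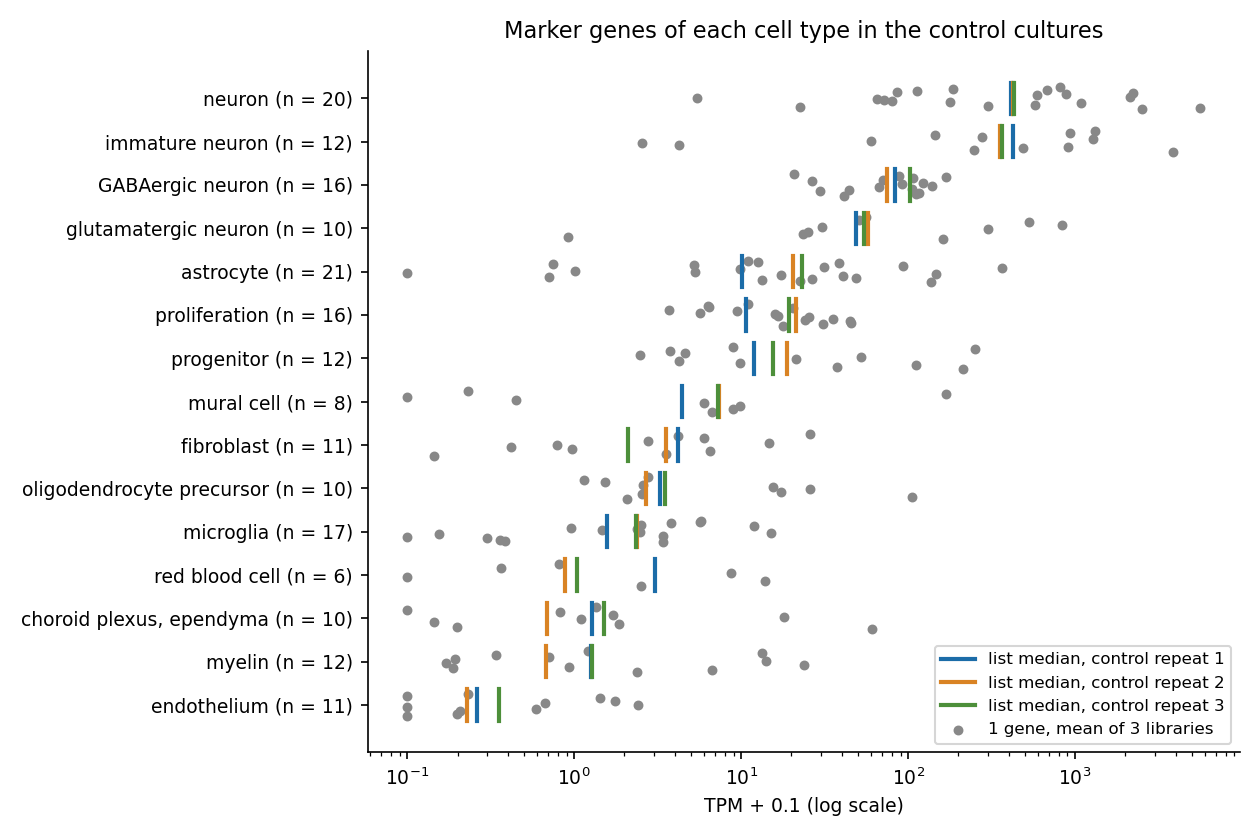
Levels of marker genes for 15 cell types or states. Each grey point is the mean of 1 gene over the 3 control libraries, the coloured bars are the list medians in each library, and the horizontal axis is TPM + 0.1 on a log scale. Pan-neuronal and immature neuron medians lie between 354 and 433 TPM, astrocyte, progenitor and proliferation medians between 10.01 and 22.9 TPM, and the endothelial median at most at 0.253 TPM.

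Glial genes lay well below neuronal ones and depended on the gene chosen. The median of 21 astrocyte genes was 10.01, 20.4 and 22.9 TPM. The highest members, Cst3 (430.5, 366 and 305 TPM), Glul (147, 133 and 163 TPM), Sparcl1 (137, 144 and 132 TPM) and Atp1b2 (96.2, 89.3 and 92.6 TPM), are also made by other cells of brain. Genes more restricted to astrocytes were lower: the glutamate transporter Slc1a3 stood at 12.2, 29.3 and 38.4 TPM, the glycolytic enzyme Aldoc at 4.28, 15.8 and 17.4 TPM and the folate enzyme Aldh1l1 at 5.38, 11.2 and 15.9 TPM. A further glutamate transporter of the list, Slc1a2, stood above each of these at 43.5, 49.4 and 52.0 TPM and differed less between libraries. Gfap, the intermediate filament of mature and reactive astrocytes, stood at 0.0907, 0.972 and 1.67 TPM, from 2, 20 and 33 reads. The gap junction gene Gjb6 had no read in any library, against a limit of 0.239 TPM. In RNA from whole cultures, fewer cells of a type and less RNA per cell cannot be told apart.

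On the log2 scale, with 0.1 added to each TPM, the neuronal median exceeded the astrocyte median by 5.30, 4.30 and 4.18 in repeats 1, 2 and 3 (mean 4.59 ± 0.62, SD, n = 3). The distance to the microglial median was 7.62 ± 0.31 (SD, n = 3), and to the endothelial median 10.52 ± 0.30. These distances set RNA levels of chosen genes side by side and are not cell ratios.

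Genes of the oligodendrocyte lineage were low apart from shared factors. Ptprz1, a phosphatase of glial precursors and radial glia, was the highest of the 10 precursor genes at 84.1, 109 and 125 TPM. Olig1 was at 12, 43.8 and 21.3 TPM and Olig2 at 8.24, 26.7 and 17.0 TPM, both lowest in repeat 1 and highest in repeat 2. Pdgfra, the growth factor receptor that defines the precursors, did not exceed 3.42 TPM, and Cspg4 did not exceed 1.96 TPM. Among 12 myelin genes, 7 did not reach 1 TPM in every library.

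Mog, a surface protein of mature myelin, stood apart from that list at 23.3, 26.1 and 21.1 TPM, higher than Mbp (15.4, 12.7 and 13.8 TPM) and Cnp (13.4, 13.0 and 13.3 TPM). Mobp and Opalin, made by the same mature cells, stayed at or under 0.260 TPM. Mog lies on chromosome 17 at 37010743 to 37023398 on the minus strand, and Gabbr1, a GABA-B receptor subunit at 379, 353 and 335 TPM, lies at 37045966 to 37075067 on the plus strand. Whether reads from other transcripts of that region reached Mog was not tested.

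Microglial, vascular and meningeal genes were low, with a few exceptions. List medians were 1.48, 2.27 and 2.24 TPM for microglia, 4.32, 7.28 and 7.13 TPM for mural cells and 4.07, 3.43 and 2.01 TPM for fibroblasts. Only the endothelial median, at 0.162, 0.128 and 0.253 TPM, was near the limit of detection. Among 17 microglial genes, Cd68, a lysosomal protein of macrophages, stood at 10.8, 14.8 and 9.998 TPM. The restricted members were lower: Aif1 was at 6.62, 7.36 and 2.92 TPM, Cx3cr1 at 0.977, 1.87 and 1.28 TPM, and P2ry12 had no read, against a limit of 0.251 TPM. Of the 11 microglial genes with a mean of at least 1 TPM, 6 were highest in repeat 2, as were 29.9% of all coding genes measured. Of 11 endothelial genes Cldn5, Tie1 and Ly6c1 had no read in any library, and the highest, Kdr, did not exceed 3.49 TPM. Kcnj8, a pericyte channel, also had none.

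The exceptions were genes of contractile and matrix-forming cells. Acta2, smooth muscle actin, stood at 108, 173 and 223 TPM, while Myh11, the myosin of mature smooth muscle, did not exceed 0.392 TPM. The pericyte genes Rgs5 (5.18, 15.5 and 8.43 TPM), Vtn (4.24, 7.07 and 8.39 TPM) and Pdgfrb (4.40, 7.49 and 5.87 TPM) were each lowest in repeat 1. Col1a1, a fibrillar collagen of fibroblasts, was at 24.7, 39.4 and 12.7 TPM and Col3a1 at 6.57, 8.44 and 2.78 TPM, both lowest in repeat 3. The list of 11 fibroblast genes summed to 66.2, 83.2 and 44.7 TPM.

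Dividing cells and progenitors were represented in every library. Of 12 progenitor genes the highest by mean was Fabp7, a fatty acid binding protein of radial glia, at 90.1, 273 and 393 TPM, although in repeat 1 it lay below Vim and Sox2. The filament gene Vim followed at 183, 226 and 235 TPM, the stem cell factor Sox2 at 95.7, 112 and 125 TPM and the filament gene Nes at 33.2, 59.4 and 63.3 TPM. Pax6 and Hes1, factors of radial glia, stayed between 2.54 and 5.12 TPM, and Eomes, of intermediate progenitors, was at 5.80, 10.4 and 10.4 TPM. Among 16 proliferation genes Rrm2, which makes deoxynucleotides, was at 31.5, 51.4 and 53.0 TPM, the replication clamp Pcna at 38.3, 43.5 and 52.5 TPM and the proliferation antigen Mki67 at 11.7, 26 and 34 TPM.

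Both transmitter classes of cortex were present. For glutamatergic neurons, the factors Neurod6 (824, 815 and 851 TPM), Neurod2 (587, 514 and 493 TPM) and Tbr1 (160.4, 159.8 and 164.5 TPM) were among the highest of 10 genes. The vesicular transporters that load glutamate were far lower, with Slc17a6 at 23.4, 25.7 and 26.2 TPM, Slc17a7 at 28.4, 26.3 and 15.7 TPM and Slc17a8 between 0.648 and 1.08 TPM. In every library each of these 3 factors was above each of the 3 transporters in TPM.

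For GABAergic neurons all 16 genes reached 10 TPM in every library. Dlx1, a homeobox factor of ventral forebrain, stood at 175, 148 and 184 TPM, and Gad1, which makes GABA, at 146, 131 and 142 TPM. The vesicular GABA transporter Slc32a1 stood at 133, 109 and 105 TPM and the antisense gene Dlx6os1 at 105, 106 and 157 TPM. Lhx6, of interneurons from the medial ganglionic eminence, was at 114, 83.8 and 121 TPM, and Adarb2 and Nr2f2, of those from the caudal eminence, were between 17.8 and 33.6 TPM. Of the 16, 14 were highest in repeat 3, as were 32.3% of all coding genes measured.

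The interneuron subtype genes were split sharply. Sst, the neuropeptide somatostatin, stood at 1806, 1420.04 and 1777 TPM, rank 33 of all genes by mean. Its neighbours in the list, Npy (133, 99.6 and 131 TPM), Cck (123, 76.1 and 110 TPM), Reln (103, 90.1 and 107 TPM) and the calcium-binding Calb2 (57.1, 62.5 and 67.1 TPM), were all far below it. Vip stayed at or under 0.438 TPM and Lamp5 at or under 0.559 TPM. Pvalb, the calcium buffer of fast-spiking interneurons that appears after birth, had no read in any library, against a limit of 0.614 TPM.

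Layer and region factors described forebrain. All 12 upper-layer genes reached 10 TPM in every library, among them Pou3f3 (255.8, 258 and 262 TPM), Lhx2 (190, 209.6 and 172 TPM) and Mdga1 (169, 143 and 140.5 TPM). Of 12 deep-layer genes 9 did, led by Bcl11b (198, 199 and 235 TPM), Tbr1, Ldb2 (101, 109 and 96.0 TPM) and Fezf2 (104, 115 and 57.8 TPM). The list medians were 99, 94.5 and 96.8 TPM for upper layers and 30.3, 34.7 and 31.5 TPM for deep layers. Cajal-Retzius genes were low, with Trp73 between 2.59 and 4.45 TPM and Lhx5 between 1.11 and 2.59 TPM, although Cxcr4 (33.6, 36.8 and 44.8 TPM) and Ndnf (14, 15.3 and 20.8 TPM), which other cells also make, were higher.

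Bhlhe22, a factor of cortical projection neurons, stood at 570.3, 590.1 and 593 TPM. Emx1, a factor of dorsal telencephalon, stood at 60.3, 64.8 and 54.8 TPM. Against these, none of 18 genes of midbrain, hindbrain and spinal cord reached 1 TPM in all libraries, and 10 of them had no read at all, among them Hoxa2, Hoxa5, Hoxb2, Hoxb3, Hoxb4, Hoxb8, Hoxc6, Hoxd3 and Hoxd4. Of these, Hoxd3, Hoxb3, Hoxb2 and Hoxd4 share 42.2% to 86.3% of their sequence words with other genes, so their zeros do not bound their levels. Of 13 genes of monoamine, acetylcholine and glycine neurons only Slc18a2, the vesicular monoamine transporter, reached 1 TPM in every library, at 3.59, 5.65 and 5.79 TPM. Th, which makes the precursor of dopamine, and Chat, which makes acetylcholine, stayed at or under 1.21 and 0.218 TPM, and Pitx3 had no read.

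Most striatal genes were detected at low levels. Of 10 genes, the enkephalin precursor Penk stood at 23.2, 14.9 and 20.6 TPM, Ppp1r1b, a target of dopamine signals, at 16.5, 13.9 and 15.3 TPM and the factor Isl1 at 9.76, 7.93 and 10.3 TPM. The dopamine receptors Drd1 and Drd2 were between 3.37 and 8.64 TPM. Repeat 2 was the lowest library for 8 of the 10, as for 21.2% of all coding genes measured.

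The machinery of transmitter release was abundant, though below the pan-neuronal list in median. The median of 20 release genes was 273, 254 and 249 TPM, and 15 of them reached 100 TPM in every library. The vesicle fusion protein Vamp2 stood at 802, 771 and 736 TPM, Syt4, a synaptotagmin of dense-core vesicles, at 642, 694 and 788 TPM and the vesicle protein Syn1 at 606, 559 and 556 TPM. The isoforms of fast synapses of the hindbrain and spinal cord, Syt2 and Vamp1, stayed between 1.23 and 3.09 TPM. Of the 14 postsynaptic scaffold genes all reached 10 TPM, among them Camk2b (431.5, 418 and 326 TPM), Shank1 (257, 216 and 234 TPM) and Dlg4, which encodes PSD-95 (174, 157 and 139.9 TPM).

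Glutamate receptor genes were dominated by a few subunits. Gria1 was the highest AMPA subunit at 324, 299 and 327 TPM, and Gria2, the subunit that blocks calcium entry when edited, was at 118, 162 and 150 TPM, without overlap between them. Of the kainate subunits Grik5 (259, 222 and 209 TPM) lay between Gria1 and Gria2 in every library, and Grik3 (71.9, 68.5 and 70.4 TPM) lay below both. Among NMDA subunits Grin2b led at 128, 118 and 182 TPM, with the obligate Grin1 at 61.1, 57.7 and 42.2 TPM, Grin3a between 16.1 and 17.2 TPM and Grin2d between 6.35 and 7.21 TPM. Of the metabotropic receptors Grm5 was highest at 76.4, 72.5 and 89.1 TPM, above Grm3 (42.0, 33.5 and 44.1 TPM), Grm2 (43.1, 32.9 and 28.6 TPM) and Grm7 (17.5, 13.1 and 14.9 TPM).

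GABA receptor genes were led by Gabbr1, the GABA-B subunit named above. Of the GABA-A alpha subunits, Gabra2 stood at 161, 192 and 192 TPM, Gabra5 at 142, 149 and 131 TPM, Gabra4 at 26.4, 33.0 and 29.3 TPM and Gabra3 at 22.5, 22.3 and 18.8 TPM, with Gabra2 above Gabra5 in each library. Gabrd, a subunit of extrasynaptic receptors, stayed between 2.82 and 3.14 TPM. The cerebellar subunit Gabra6 had no read, against a limit of 0.257 TPM.

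Among channels the sodium channel beta subunit Scn3b stood above all pore subunits at 194, 184 and 176 TPM. The pore genes Scn2a (46.5, 53.3 and 58.4 TPM), Scn3a (39.7, 44.2 and 48.2 TPM) and Scn8a (37.3, 35.3 and 39.8 TPM) lay close together, and Scn1a was at 9.10, 12.1 and 11 TPM. Scn4a, of skeletal muscle, had no read. Of 10 calcium channel alpha genes Cacna1b, the N type, was highest at 221, 110.3 and 132 TPM, with repeat 1 apart from the others, then Cacna1h (131, 113 and 99 TPM), Cacna1c (41.3, 33.5 and 42.7 TPM) and Cacna1a (36.3, 30.7 and 32.4 TPM). The pacemaker channels Hcn2, Hcn3 and Hcn4 ranged from 61.7 to 96.0 TPM.

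For 11 pairs of related genes whose balance is known to shift with age or cell type, the ratio was taken within each library, on the log2 scale with 0.1 added to each TPM. Grin2b exceeded Grin2a, the NMDA subunit of later synapses (5.37, 6.80 and 7.65 TPM), by 4.40 ± 0.26 (SD, n = 3). Ina, the neurofilament of early axons, exceeded Nefh, that of mature axons, by 7.35 ± 0.15. Dcx exceeded Rbfox3 by 3.52 ± 0.38 and Camk2b exceeded Camk2a by 2.80 ± 0.10, while Syt1 exceeded Syt2 by 7.66 ± 0.18. In these 5 pairs the gene named before the other was the higher in every library.

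Other pairs leaned the opposite way or were even. The chloride exporter Slc12a5 (61.9, 55.1 and 54.4 TPM), which makes GABA inhibitory, stood above the importer Slc12a2 (26.7, 28.4 and 33.6 TPM), with a log2 ratio of importer to exporter of −0.95 ± 0.26 (−1.67 with the mean transcript length). Dlg4 stood above Dlg3, the scaffold of earlier synapses, with a ratio of −0.53 ± 0.17 (−2.63 with the mean transcript length), and Eno2, the neuronal enolase, above Eno1 with −2.26 ± 0.27. The Eno1 transcript shares 72.2% of its sequence words with other genes, a limit described below. For Slc17a6 over Slc17a7 the 3 ratios were −0.28, −0.03 and 0.73 and changed sign between libraries. Scn3a over Scn8a (0.23 ± 0.12) and Ldha over Ldhb (−0.47 ± 0.17) changed sign when another gene length was used, so their order was not settled.

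**Figure D2:**
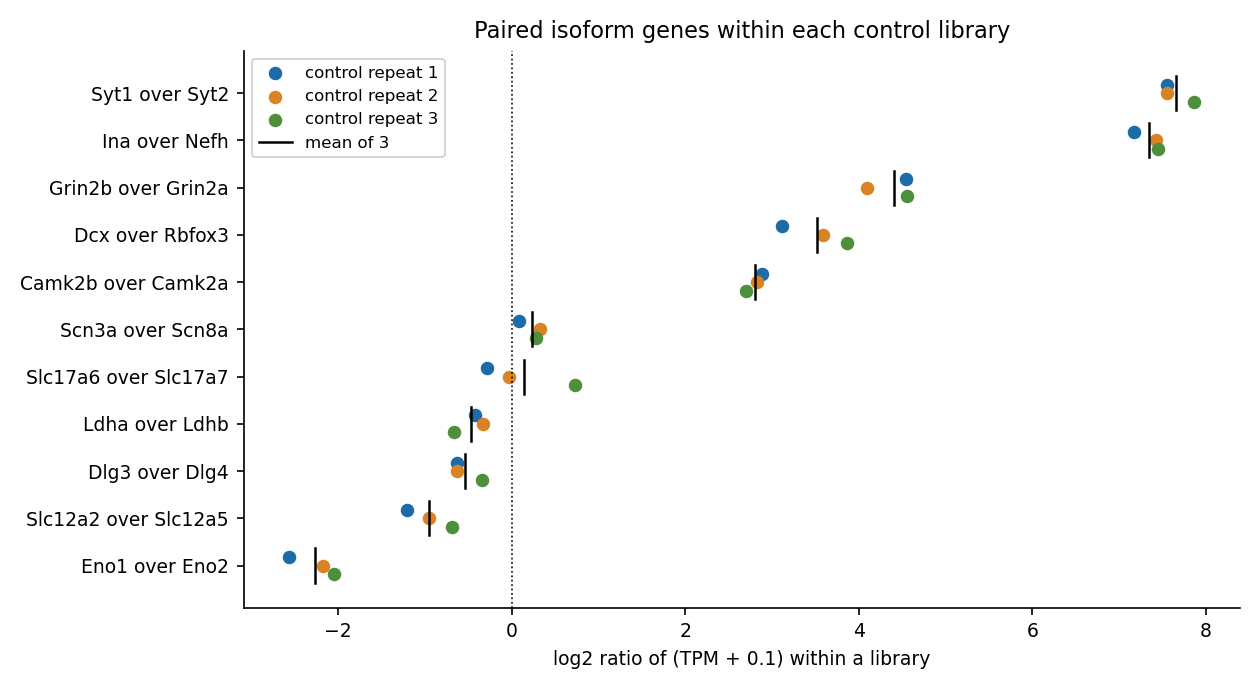
Log2 ratio of paired genes within each control library (horizontal axis, from TPM + 0.1). Coloured points are the 3 libraries and the black line is their mean. The 5 upper pairs lie above 0 in all libraries, Slc17a6 over Slc17a7 straddles 0, and Eno1 over Eno2 lies lowest at −2.26.

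The spread between the 3 libraries was small for most genes. It was measured for the 12727 protein-coding genes with a mean of at least 1 TPM as the log2 range, the highest library over the lowest, with 0.1 added to each TPM. The median range was 0.30, and 40.9% of the genes lay within 0.25. A range over 1, a factor above 2, was found for 847 genes, 6.66% of those measured. Among the 9300 with a mean of at least 10 TPM it was found for 116 (1.25%). The common coefficient of biological variation, which removes counting noise, was 14.9%, and for single genes its median was 14.1%, with 9.63% and 27.2% at the 5th and 95th percentiles. The range over libraries of log2 TPM was thus wider for low genes, where counting error adds to it.

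Repeat 1 was farthest from the others. Spearman correlations across genes, which are not independent replicates, were 0.990 between repeats 1 and 2, 0.985 between 1 and 3 and 0.992 between 2 and 3. The common coefficient was 11.5% without repeat 1, against 18.6% without repeat 2 and 14.2% without repeat 3. Among the 847 genes of wide range the library farther from the other values was repeat 1 for 445 (52.5%), repeat 2 for 169 and repeat 3 for 233, and over all 12727 genes it was repeat 1 for 44.2%. Repeat 1 held the lowest value for 38.8% of them and the highest for 37.7%, and repeat 3 held the lowest for 40.0%.

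**Figure D3:**
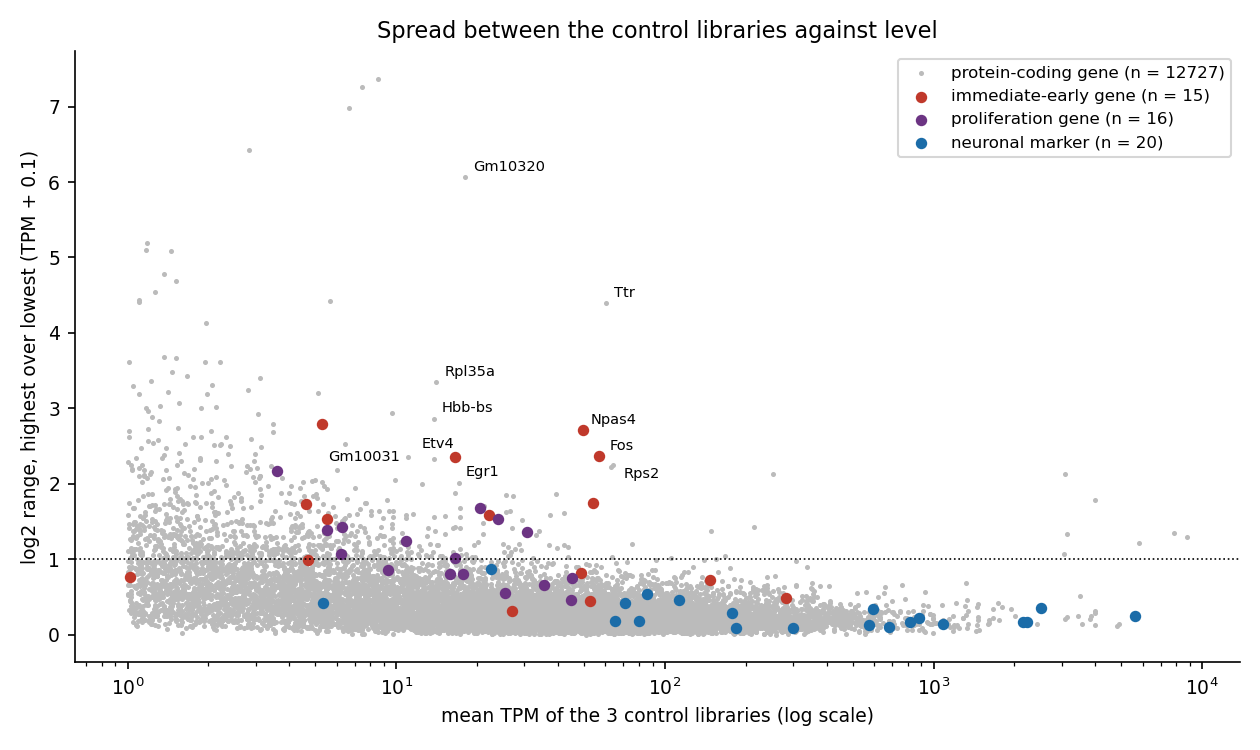
Log2 range between the 3 control libraries (vertical axis) against mean TPM (log scale) for 12727 protein-coding genes. The dotted line is a range of 1. Neuronal markers (blue) all lie under 1, while 8 of 15 immediate-early genes (red) and 9 of 16 proliferation genes (purple) lie above it, and the named points are the 10 genes of widest range at a mean of at least 10 TPM.

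The genes with the smallest range among those with a mean of at least 10 TPM were Raly, which binds RNA, at 259.97, 259.92 and 260.1 TPM, then Ubac2 (50.7, 50.8 and 50.7 TPM), Snw1, a splicing and transcription factor (32.6, 32.6 and 32.6 TPM), Cadps, which primes dense-core vesicles (75, 75.2 and 75.2 TPM), Eya3, Cyb5b, Sec24b, Srrm2, Kctd6 and Sh3bp5l. Each of the 10 had a log2 range of 0.01 or less.

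The 10 with the widest range were of several kinds. Ttr, the thyroid hormone carrier made by choroid plexus, stood at 56.6, 5.53 and 118.7 TPM, and Hbb-bs, a beta globin of red cells, at 25.9, 3.47 and 11.9 TPM. Npas4, Fos and Egr1 are activity genes, described next. Etv4, a factor downstream of growth factor signals, stood at 5.42, 27.8 and 8.30 TPM, high in repeat 2 alone. The ribosomal protein genes Rpl35a (2.39, 14.8 and 25.2 TPM) and Rps2 (23.7, 56.1 and 112.7 TPM) and the predicted genes Gm10320 and Gm10031 share 39.7% to 88.8% of their sequence words with other genes.

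Immediate-early genes, the earliest response to calcium entry into a neuron, differed widely. Of the 15 genes 8 had a range over 1, against 6.66% of all genes measured. In repeat 1 lay the highest value of 14 (37.7% of all genes) and in repeat 3 the lowest value of 14 (40.0% of all genes). Npas4, a factor induced by neuronal activity, stood at 90.7, 43.7 and 13.8 TPM and Fos at 96.0, 56.2 and 18.5 TPM. Fosb stood at 9.35, 5.26 and 1.26 TPM and Nr4a1 at 85.9, 51.3 and 25.5 TPM. Egr1 was at 33.1, 10.1 and 6.41 TPM and Arc, which acts at spines, at 7.63, 6.37 and 2.58 TPM. The most abundant member, Nr4a3 (314, 307 and 223 TPM), differed less, as did Jun (171, 168 and 103 TPM), and Btg2 (23.3, 29.1 and 28.3 TPM) was lowest in repeat 1. The 3 activity promoters printed above belong to genes with ranges of 1.75 (Nr4a1), 2.37 (Fos) and 2.71 (Npas4), and Sst, with the full motif, had a range of 0.35.

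Some secreted products were lowest in repeat 3, as were 8 of 15 neuropeptide and 2 of 6 neurotrophin genes with a mean of at least 1 TPM, near the 40.0% of all genes. Bdnf, a growth factor for neurons, stood at 13.4, 16.1 and 5.24 TPM, the granule protein Vgf at 239, 295 and 109 TPM, Scg2 at 188, 179 and 106 TPM and the peptide Adcyap1 at 13.7, 9.88 and 5.58 TPM. Other granule genes were steadier: Cpe, which trims peptides, was at 847, 1012 and 864 TPM and Chga at 207, 187 and 172 TPM. The receptors Ntrk2 (140.2, 121 and 132 TPM) and Ntrk3 (45.7, 52.9 and 61.9 TPM) had ranges under 0.5, and Ntf3 was at 33.1, 20.9 and 23.7 TPM.

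All 16 proliferation genes and all 12 progenitor genes had their lowest value in repeat 1, against 38.8% of all genes measured, and 9 of 16 and 3 of 12 had a range over 1. Relative to each gene's own mean, the median proliferation gene stood at −0.64, 0.29 and 0.29 on the log2 scale and the median progenitor gene at −0.46, 0.30 and 0.24. Astrocyte genes leaned the same way: 13 of the 17 with a mean of at least 1 TPM were lowest in repeat 1 and 13 were highest in repeat 3, with 6 ranges over 1. The median astrocyte gene stood at −0.38, 0.10 and 0.32. All 5 mural genes at that level, Acta2 among them, were lowest in repeat 1. For these 4 lists repeats 2 and 3 lay closer to each other than to repeat 1.

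Ranges over 1 were also counted in the neuronal lists. None of the 20 pan-neuronal, 20 release, 14 postsynaptic, 16 GABAergic or 12 upper-layer genes had one. Most of these genes reached 10 TPM in every library. Of all coding genes with a mean of at least 10 TPM 1.25% had one, so 0 in lists of this size is near that share. Of all coding genes measured 6.66% had one. Some other neuronal lists were at or above that share: 1 of 12 immature neuron, 1 of 12 deep-layer, 1 of 9 interneuron subtype, 1 of 8 calcium channel and 3 of 15 neuropeptide genes. The pan-neuronal median relative to each gene's mean was 0.07, −0.02 and −0.06. Repeat 1 had the highest value for 16 of 20 release genes, against 37.7% of all genes measured, by small amounts: Vamp2 had a range of 0.12.

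**Figure D4:**
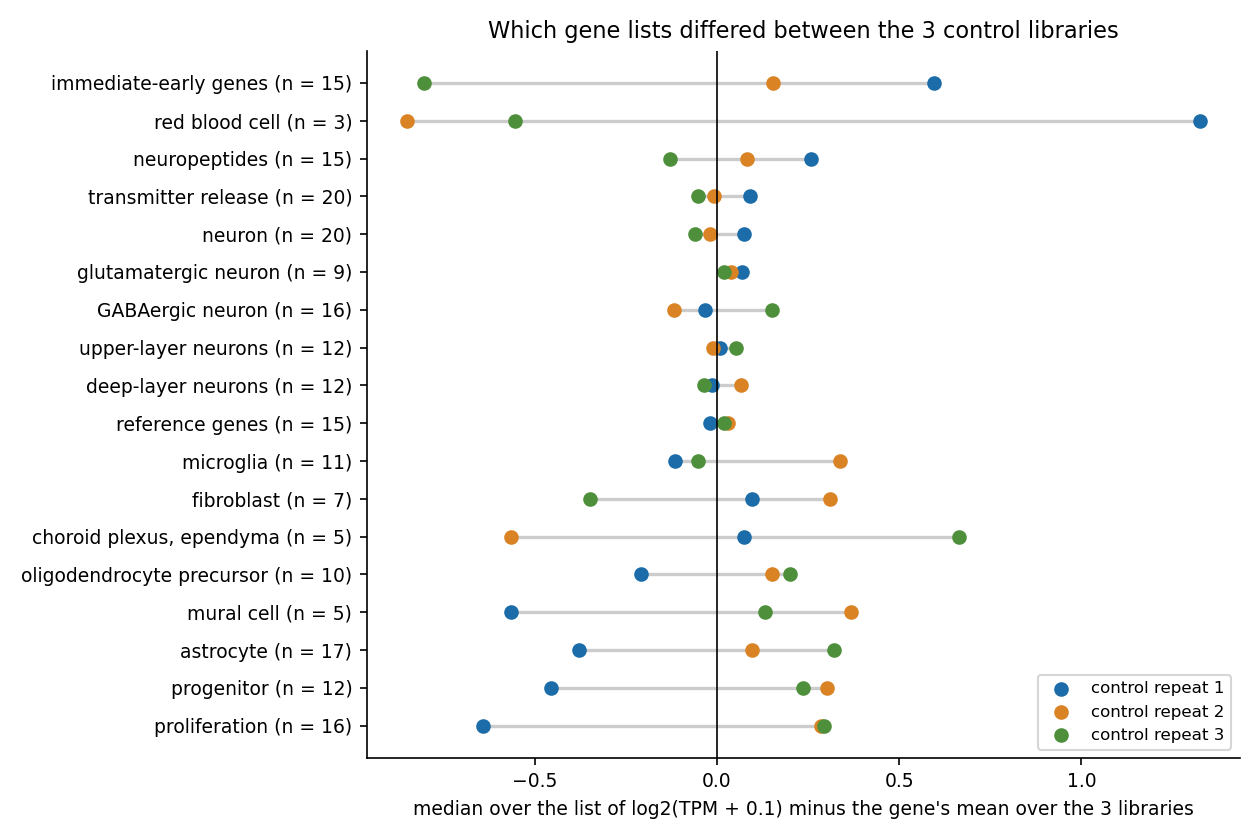
Level of 18 gene lists in each control library, as the median over the list's genes of log2(TPM + 0.1) minus the gene's mean over the 3 libraries (genes with a mean of at least 1 TPM, n in brackets). Immediate-early genes run from 0.60 in repeat 1 to −0.80 in repeat 3, proliferation genes stand at −0.64 in repeat 1, and the pan-neuronal, release, glutamatergic, GABAergic and layer lists stay between −0.12 and 0.15.

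Choroid plexus and blood genes had 3 ranges over 1 each, among 5 and 3 genes with a mean of at least 1 TPM (6.66% of all genes measured had one). Beside Ttr, Folr1 was at 1.5, 0.714 and 2.60 TPM, Kcne2 at 1.08, 0.464 and 1.45 TPM and Clic6 at 0.880, 0.262 and 1.03 TPM. Each of these 4 was lowest in repeat 2 and highest in repeat 3. Folr1, Kcne2 and Clic6 were under 1 TPM in repeat 2, and Clic6 was not among the 5. Of the 5, 3 were lowest in repeat 2 (21.2% of all genes) and 2 in repeat 1 (38.8% of all genes). Highest in repeat 3 were 4 of the 5 (32.3% of all genes). The ependymal factor Foxj1 (14.4, 16.7 and 22.6 TPM) was lowest in repeat 1, and Ccdc153, of ependymal cilia, had no read. Hba-a1 stood at 15.8, 5.05 and 4.98 TPM and Hbb-bt at 5.44, 0.875 and 0.909 TPM, both highest in repeat 1 as Hbb-bs was. Hba-a2, which had no read, shares 86.9% of its sequence words with other genes.

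Genes of the sex chromosomes differed too. Xist, the RNA of the inactive X chromosome in females, stood at 217, 178 and 443 TPM. The Y-linked genes Ddx3y, Eif2s3y, Kdm5d and Uty summed to 21.7, 58.3 and 28.3 TPM. Both were detected in each library, and their log2 ratio was 3.33, 1.61 and 3.97. Each library thus held RNA from both sexes, and the Y-linked sum was highest in repeat 2.

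Of 12 stress genes none had a range over 1 (6.66% of all genes did). The lowest value lay in repeat 3 for 8 of them (40.0% of all genes) and the highest in repeat 2 for 7 (29.9% of all genes). The chaperone of the endoplasmic reticulum Hspa5 stood at 410.2, 477 and 436 TPM, the amino acid response factor Atf4 at 427, 425 and 370.2 TPM, its target Asns at 220.5, 205 and 177 TPM and Hsp90aa1 at 211, 221 and 203 TPM, with 58.5% of its sequence words shared with other genes. The heme oxygenase Hmox1 ranged from 11.8 to 13.9 TPM.

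Levels of several abundant household genes were low where their sequence is shared. For each gene, the 50-base words of its principal transcript were looked up in the transcripts of all other genes, on both strands. Gapdh, a glycolytic enzyme among the most abundant proteins of most cells, stood at 8.56, 7.25 and 6.39 TPM, from 185, 146 and 124 reads, and 82.5% of its words occur elsewhere. Pgk1 (7.25, 8.96 and 9.30 TPM, 68.0% shared), Ppia (35.4, 27.5 and 24.8 TPM, 54.3% shared) and Hspa8 (39.7, 35.0 and 29.1 TPM, 74.8% shared) were like it. Among reference genes with little shared sequence, Actb (14.2% shared) was above 4600 TPM, Ywhaz (19.9% shared) stood at 505, 569.7 and 549 TPM, Tfrc at 202, 235 and 294 TPM and Sdha at 197, 193 and 194 TPM. Tfrc and Sdha shared no word. Only 5 of the 15 reference genes reached 100 TPM in every library, with Actb, Ywhaz, Tfrc and Sdha among them. The median of the list, averaged over the libraries, was 36.48 TPM, near Ppia and Hspa8. High levels also occurred with shared sequence: Tuba1a (75.5% shared) had a mean of 3517 TPM and mt-Nd4 (62.2% shared) of 3068 TPM.

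A similar picture came from 79 coding genes whose symbol is Rpl or Rps and a number. The set leaves out Rpsa and takes in related genes such as Rpl10l, Rpl3l and Rpl39l, with means of 0, 0.0864 and 0.744 TPM. Rpl10l, Rpl3l and Rpl39l lie in the class with the least shared sequence and lower its median. Another related gene, Rpl22l1 (65.6% shared), lies in the class from 50% to 75%. The medians fell only above 50% shared words. Their median was 70.6 TPM for the 14 genes with under 25% shared words, 73.9 TPM for the 25 with 25% to 50%, 16.3 TPM for the 20 with 50% to 75% and 8.99 TPM for the 20 above that. The Spearman correlation across the 79 genes was −0.446, as a description of genes that share a pattern of names. Rpl8 (6.49% shared) had a mean of 1347 TPM and Rpl4 (16.5% shared) of 1193 TPM. Of the 12725 coding genes with a mean of at least 1 TPM and a computed share, 440 (3.46%) shared over 50% of their words. Levels of such genes are uncertain, since how reads with several matches were counted is not given in the sources used here. Among tubulins this touches Tuba1a (75.5%), Tuba1b (83.1%) and Tubb4b (55.5%), but not Tubb3, Tubb5 or Tubb4a, which share under 1%.

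Of the 13 coding genes of the mitochondrial genome 6 had no read in any library: mt-Co2, mt-Atp6, mt-Co3, mt-Nd3 and mt-Nd4l share 98.0% to 100% of their words with other genes, and mt-Atp8 shares none. The other 7 share at most 62.2%. The mitochondrial percentages above are therefore mostly those of 7 genes and the ribosomal RNAs.

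**Figure D5:**
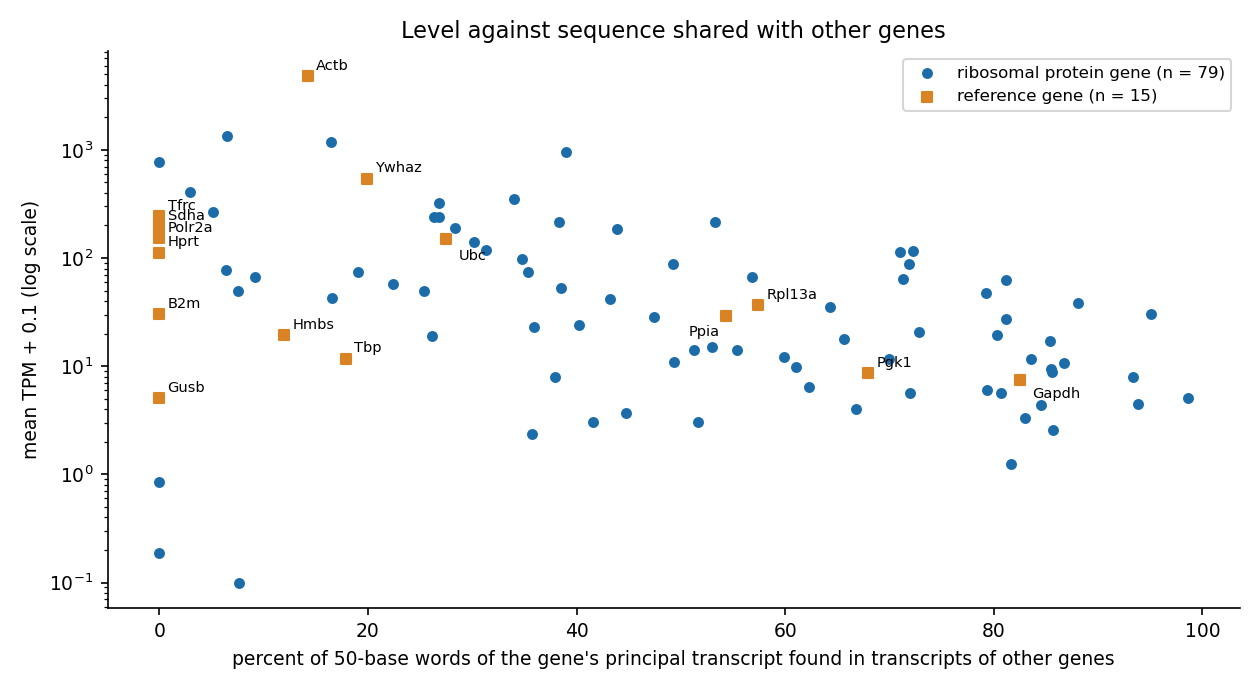
Mean TPM + 0.1 (log scale) against the percent of 50-base words of a gene's principal transcript found in transcripts of other genes. Circles are 79 genes with ribosomal protein symbols, related genes included, and squares are 15 reference genes. The median of the ribosomal genes is 70.6 TPM under 25% and 8.99 TPM above 75%, and Gapdh lies at 82.5% and 7.40 TPM.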

How the data were processed

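The authors deposited raw counts of reads for each Ensembl identifier, with 1 file per library and 54232 genes in each. The submitters' processing notes list build mm10 and the tools HTSeq 2.0.2, STAR 2.7.5, DESeq2 1.14.1 and cutadapt 4.2 without roles. The annotation, strand setting and treatment of reads with several matches are not given in the sources used here, so reads of overlapping or antisense genes cannot be told apart. The labels give polyA RNA but name a kit for total RNA. Rows of 67 identifiers had no match in GENCODE M21, which gave names, types and exon lengths, and took at most 0.0102% of the counts.

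Counts were divided by the union of exon lengths and scaled to TPM. Genes were named by a rule: the 20 coding and 5 other genes with the highest mean TPM; the 4 highest members of each list and any member at 0; both genes of each pair; and the 10 coding genes of widest and narrowest log2 range at a mean of at least 10 TPM. Other list members are given by value, and some genes that the rule names are not reported here. The libraries, lists (41, with 468 symbols) and pairs were chosen with earlier results of these data known, and the sequence words, promoter motifs and imprinted and long noncoding genes after values were seen. The spread was limited to protein-coding genes after values were seen. For 2 listed symbols with 2 identifiers the higher was used. The coefficient of biological variation came from edgeR 4.0.16 in R 4.3.3 with an intercept only, over 14255 genes kept by filterByExpr (minimum count 10, minimum total 15). On data simulated with 15% over these genes it returned 14.9%. Of 200 genes simulated with a spread far above the real 95th percentile of 27.2%, 174 were among the 200 with the highest estimate. These were drawn from genes with more reads, so the recovery of smaller spreads or of low genes was not tested. Alternatives tried were other detection levels, gene lengths, scalings, pseudocounts, filters and each library left out. Promoters of 300 bases were RefSeq's, matched by symbol.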

Additional observations from a re-analysis of the deposited data

How the results depend on the processing

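Of 337 values recomputed for 44 results under other settings, 282 stayed within the spread between libraries (counts within a factor of 1.5), 53 moved by more and 2 changed sign by more than that spread. These were Scn3a over Scn8a and Ldha over Ldhb, at −0.82 and 0.42 on the log2 scale with the mean transcript length in place of the union of exons. Slc17a6 over Slc17a7, whose spread spans 0, was −0.16 without repeat 3. Part of the 282 could hardly have moved by construction, so their number overstates how far the results were tried. Log2 ratios within a library barely depend on library scaling, and list medians in TPM use no pseudocount. Scaling by TMM or by size factors of the DESeq2 kind shifted the median gene by at most 0.0204 and 0.0197 log2. The log2 distance from the neuronal to the microglial median was 8.25 with the mean transcript length, 7.10 with a pseudocount of 1 and 8.93 in CPM, and Grin2b over Grin2a was 4.81 with the mean transcript length. The common coefficient of biological variation was 12.8% at a mean of at least 10 TPM, and 11.5% to 18.6% with a library left out. The count of genes with a log2 range over 1 was 116 at a mean of at least 10 TPM and 420 with a pseudocount of 1. With genes of any type, an alternative chosen after seeing the data, it was 2549 of 15956. With a library left out it was 300 (without repeat 1), 437 (without repeat 3) and 563 (without repeat 2), partly because a range over fewer libraries is narrower by construction. No paired analysis was possible because 1 group was described and no groups were compared. Depth limits the low genes: a gene without reads is known only to lie under about 3 counts, and where its sequence is shared with other genes, as for Hoxd3, even that limit does not hold.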

Other observations

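Imprinted and long noncoding genes, chosen after their values were seen, differed widely in level. Ndn, a paternally expressed gene of postmitotic neurons, stood at 399, 378 and 348 TPM in repeats 1, 2 and 3, Snrpn at 287, 303 and 319 TPM and Peg3 at 63.8, 72.4 and 70.7 TPM. Cdkn1c, an inhibitor of the cell cycle, stood at 35.5, 34.6 and 32.8 TPM, while Dlk1 and H19 stayed between 1.74 and 5.54 TPM. Of the noncoding RNAs Meg3 was at 310, 341 and 262 TPM and Miat, which is abundant in neurons, at 224, 216 and 145 TPM. Malat1, a nuclear RNA, was at 158, 146 and 282 TPM, high in repeat 3 alone, and Neat1, the scaffold of paraspeckles, stayed between 0.396 and 0.554 TPM. Kcnq1ot1 stood at 0.429, 0.716 and 1.69 TPM and was also highest in repeat 3.

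A list of 12 genes of other organs served as a check on stray RNA. The insulin genes Ins1 and Ins2, the keratin Krt5, the lung gene Sftpc and the kidney gene Umod had no read. Alb, the serum albumin of liver, stood at 25.1, 14.8 and 20.8 TPM, and the cardiac myosins Myh7 and Myh6 between 1.49 and 3.00 TPM. The source of the Alb reads was not tested.

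Across 16511 coding genes with a RefSeq promoter window, the median number of CG pairs was 2 for genes under 0.1 TPM, 7 from 0.1 to 1 TPM, 17 from 1 to 10 TPM, 22 from 10 to 100 TPM and 24 at 100 TPM or more. TATAAA on the gene's strand or its reverse complement was found in 25.9% of the lowest class and 6.21% of the highest. The short motif TGACG or CGTCA was found in 10.5% and 36.7%. These shares describe letters in a window of fixed length.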
